A study of Homo sapiens with 13 samples.

Results

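Active enhancer regions were taken as stretches of chromatin that carried H3K27ac and H3K4me1 but no H3K4me3 in PANC1 cells, an established human pancreatic ductal carcinoma line. Peaks of both replicates of a histone mark were merged, a merged region was kept where each replicate gave a peak, and an H3K27ac region was an enhancer region where it met an H3K4me1 region and no H3K4me3 region by at least 1 bp on chromosomes 1 to 22 and X. The members were thus chosen by the measured peaks of these 3 marks. This rule found 4753 enhancer regions among 24239 H3K27ac regions, or 19.6% (exact 95% interval 19.1 to 20.1). The remaining H3K27ac regions were 6193 that met neither H3K4 mark, called H3K27ac-alone regions here, and 13293 that met H3K4me3, called H3K4me3-bearing regions. All 12 libraries were CUT&RUN libraries, in which a nuclease tethered to an antibody cuts out the DNA beside its target, and they held 2 replicates each of BRG1, SMARCC1, NRF2, H3K27ac, H3K4me1 and H3K4me3. All came from 1 stable line labelled PANC1-BRG oe that expresses BRG1, so every comparison is made within cells that carry the added BRG1, and the labels do not say whether the line is a single clone or whether replicates were separate cultures.

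Enhancers are stretches of DNA that raise transcription of a gene from a distance. Nucleosomes beside them carry H3K4me1, and H3K27ac is added where the enhancer is active, while H3K4me3 marks the starts of transcribed genes. BRG1, encoded by SMARCA4, is an ATPase that moves nucleosomes within the BAF and PBAF complexes, SMARCC1 is a core subunit of these complexes, and NRF2, the product of NFE2L2, drives the antioxidant response by binding antioxidant response elements.

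A small set of enhancer regions met, by at least 1 bp, the 250 bases upstream of an annotated transcription start, and these are the enhancer regions whose sequence was at hand. The windows and their sequences are those of RefSeq, build GRCh38.p14, and 152 windows of 137 gene symbols met an enhancer region. Of these windows, 68 lay wholly inside an enhancer region. Motifs were counted over the whole window, so a match can lie outside the enhancer region. The 3 motifs below were searched on both strands, the AP-1 element TGANTCA, the TEAD element GGAATG and the core of the antioxidant response element, TGACNNNGC. A stretch that holds both an AP-1 element and the antioxidant core can match both. A reproducible site of BRG1, SMARCC1 or NRF2 lay on 10 of the windows, 6 of them of coding genes and 4 of provisional LOC symbols, and 4 of the 10 held a motif match. The sequences below are the 6 of coding genes (KLHL41, NCOA7, CALHM3, BCAR1, ACTN4 and BFSP1) and, for comparison, starts of CD59, an inhibitor of complement, and KRT8, a keratin of simple epithelia, in enhancer regions with no reproducible factor site. Each is written 5′ to 3′ on the strand of its gene, with motif matches in capitals.
KLHL41, chr2:169509452-169509701, plus strand: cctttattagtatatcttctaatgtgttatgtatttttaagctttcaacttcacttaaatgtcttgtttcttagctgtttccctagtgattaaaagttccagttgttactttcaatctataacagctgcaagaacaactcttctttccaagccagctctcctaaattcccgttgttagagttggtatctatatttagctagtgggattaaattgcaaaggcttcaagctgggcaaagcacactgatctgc
NCOA7, chr6:125919005-125919254, plus strand: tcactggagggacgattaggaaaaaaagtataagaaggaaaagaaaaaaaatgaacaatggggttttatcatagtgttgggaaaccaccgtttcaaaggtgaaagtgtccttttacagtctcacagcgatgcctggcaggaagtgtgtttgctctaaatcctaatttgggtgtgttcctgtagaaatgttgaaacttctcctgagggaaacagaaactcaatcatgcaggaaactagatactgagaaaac
CALHM3, chr10:103479241-103479490, minus strand: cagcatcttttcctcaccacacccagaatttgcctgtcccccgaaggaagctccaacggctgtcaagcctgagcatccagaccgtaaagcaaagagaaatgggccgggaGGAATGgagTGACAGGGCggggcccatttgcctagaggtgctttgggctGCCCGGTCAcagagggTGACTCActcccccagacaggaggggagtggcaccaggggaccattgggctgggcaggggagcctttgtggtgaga
BCAR1, chr16:75268008-75268257, minus strand: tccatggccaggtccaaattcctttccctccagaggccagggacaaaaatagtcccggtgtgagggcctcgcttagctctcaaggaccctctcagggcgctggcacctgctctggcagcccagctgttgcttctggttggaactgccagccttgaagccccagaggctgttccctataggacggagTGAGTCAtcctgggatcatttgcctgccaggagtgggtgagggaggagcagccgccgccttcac
ACTN4, chr19:38693871-38694120, plus strand: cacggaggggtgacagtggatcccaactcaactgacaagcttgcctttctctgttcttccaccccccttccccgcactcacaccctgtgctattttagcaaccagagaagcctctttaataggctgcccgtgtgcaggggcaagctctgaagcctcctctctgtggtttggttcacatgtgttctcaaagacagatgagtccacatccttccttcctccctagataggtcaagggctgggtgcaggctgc
BFSP1, chr20:17558834-17559083, minus strand: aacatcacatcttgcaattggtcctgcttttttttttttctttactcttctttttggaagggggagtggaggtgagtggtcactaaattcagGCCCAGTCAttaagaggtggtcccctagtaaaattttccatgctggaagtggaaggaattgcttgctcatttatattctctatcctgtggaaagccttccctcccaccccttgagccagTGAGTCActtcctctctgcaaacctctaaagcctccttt
CD59, chr11:33722728-33722977, minus strand: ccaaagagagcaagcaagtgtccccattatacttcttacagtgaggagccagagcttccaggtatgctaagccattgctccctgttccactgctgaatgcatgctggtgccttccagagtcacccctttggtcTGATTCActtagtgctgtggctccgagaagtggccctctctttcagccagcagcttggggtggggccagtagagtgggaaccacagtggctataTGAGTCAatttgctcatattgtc
KRT8, chr12:52926470-52926719, minus strand: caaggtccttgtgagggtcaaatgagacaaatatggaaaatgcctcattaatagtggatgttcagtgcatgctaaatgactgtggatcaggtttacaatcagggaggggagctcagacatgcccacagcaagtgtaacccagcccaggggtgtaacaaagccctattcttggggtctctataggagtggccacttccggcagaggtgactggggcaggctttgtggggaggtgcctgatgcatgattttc

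The start windows that met enhancer regions, wholly or in part, were poor in CpG and often held an AP-1 element. Their median CpG ratio, observed over expected from base composition, was 0.211, against 0.407 in the 279 windows in H3K27ac-alone regions, 0.841 in the 6366 windows in H3K4me3-bearing regions and 0.558 in all 34961 windows. An AP-1 element stood in 28.3% of the windows in enhancer regions, against 18.6% in H3K27ac-alone regions, 3.36% in H3K4me3-bearing regions and 6.54% of all windows. The antioxidant core stood in 18.4% of the windows in enhancer regions, against 11.5%, 11.9% and 10.9% in the same 3 sets. The TEAD element stood in 10.5% of the windows in enhancer regions, against 14.3%, 9.10% and 11.9%. These shares are descriptions of letters and were not tested, and neither base composition nor the number of windows a gene has was held equal between the sets. KLHL41, a kelch protein of skeletal muscle, had sites of all 3 factors on a window with no match, and CALHM3, an ion channel subunit, had a BRG1 site on a window that held all 3 motifs. SMARCC1 stood on the window of BCAR1, an adaptor of integrin signalling also called p130Cas, and BRG1 on that of BFSP1, a filament protein of the lens. Both windows held an AP-1 element. The enhancer region at BFSP1 began at position 17558945, and the AP-1 element lay in the part of the window outside it. BRG1 also stood on the windows of NCOA7, a nuclear receptor co-activator, and ACTN4, an α-actinin of the cytoskeleton, neither of which held a match. The CD59 window shown held a pair of AP-1 elements, while another CD59 window that met the same enhancer region held no match. The KRT8 window held no match.

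The H3K27ac libraries held 32499 and 32294 peaks, the H3K4me1 libraries 37283 and 34234 and the H3K4me3 libraries 18789 and 17752, which gave 23538 reproducible H3K4me1 and 15638 reproducible H3K4me3 regions. The factor libraries were far smaller and gave 2039 reproducible BRG1 sites, 169 SMARCC1 sites and 383 NRF2 sites. Every SMARCC1 peak, 600 and 572 in the 2 libraries, had a −log10 q of 0, as did 2418 of 3213 and 2844 of 6610 BRG1 peaks and 845 of 1538 and 577 of 919 NRF2 peaks. Strength is the highest fold enrichment that the authors' peak caller gave any peak in the region, library by library. The read depth of the libraries is unknown, the labels do not state what the fold is relative to, and an IgG library was not used here.

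Enhancer regions were intermediate in width and in H3K27ac strength between the other classes. Their median width was 530 bp (quartiles 374 and 799, range 200 to 7269), against 441 bp for H3K27ac-alone regions and 629 bp for H3K4me3-bearing regions. The median H3K27ac fold of enhancer regions was 3.87 in replicate 1 and 3.83 in replicate 2, against 3.58 and 3.55 in H3K27ac-alone regions and 4.03 and 4.07 in H3K4me3-bearing regions. The libraries differed by less than the classes did, with a mean of library medians of 3.85 ± 0.0277 for enhancer regions and 3.56 ± 0.0244 for H3K27ac-alone regions (SD, n = 2 libraries). The interquartile ranges of all 3 classes overlapped in both libraries, so the classes differed in their middle and shared most of their range. H3K4me1 in enhancer regions had medians of 4.03 and 3.85 in its 2 libraries. Because the peaks of these 3 marks chose the regions, the strengths are given as a description.

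**Figure D1:**
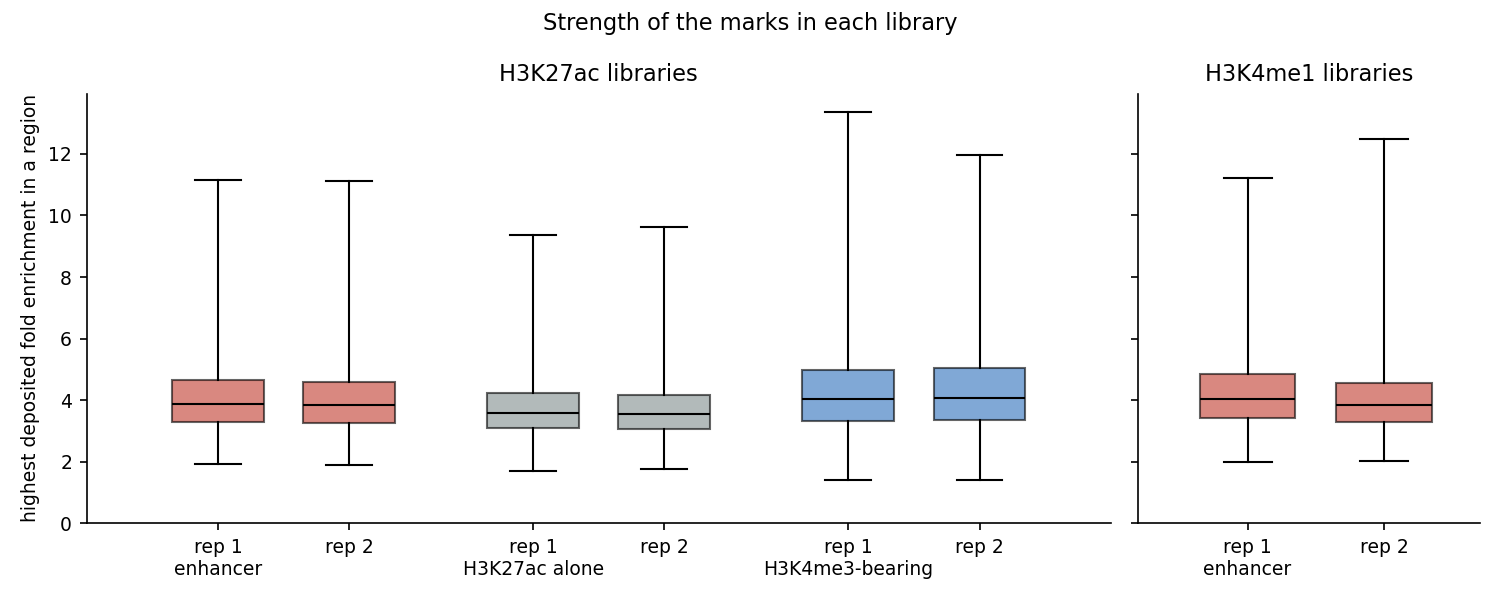
Highest deposited fold enrichment per region (y axis) in each H3K27ac library for enhancer, H3K27ac-alone and H3K4me3-bearing regions, and in each H3K4me1 library for enhancer regions. Boxes span the quartiles, the line is the median and whiskers reach the lowest and highest region. Enhancer regions had H3K27ac medians of 3.87 and 3.83, above the 3.58 and 3.55 of H3K27ac-alone regions and below the 4.03 and 4.07 of H3K4me3-bearing regions.

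Across the 4753 enhancer regions the strength of a mark was repeatable, but the strengths of the 2 marks were only loosely tied. Spearman's correlation between the replicates was 0.566 for H3K27ac and, over the 4707 regions with an H3K4me1 peak of both libraries, 0.591 for H3K4me1. Between the mean H3K27ac and mean H3K4me1 fold, it was 0.219. Wider regions had more H3K27ac, with a Spearman correlation of 0.450, and that of width with H3K4me1 was 0.0168. These values run across regions of the same libraries, so regions are not independent replicates.

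H3K4me1 usually covered the acetylated stretch nearly whole. The median enhancer region had 93.8% of its length inside H3K4me1 regions, and 1877 (39.5%) lay wholly inside. H3K27ac summits of the 2 libraries lay a median of 62 bp apart, and H3K4me1 summits lay a median of 85 and 91 bp from the H3K27ac summit of replicate 1. At the H3K27ac summit itself 87.0% of enhancer regions were inside an H3K4me1 region, against 32.3% and 33.4% at 500 bp on either side. In most enhancer regions both marks were thus measured in the same narrow stretch, at the resolution of merged peaks. The rule required the marks to overlap, so part of this closeness follows from it. Among the 10 enhancer regions with the highest H3K27ac, the share inside H3K4me1 ran from 13.4% in ZMYND8 to 95.9% in TKT. The nearest H3K4me3 region was a median of 31532 bp away, and 290 enhancer regions (6.10%) had one within 2000 bp.

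**Figure D2:**
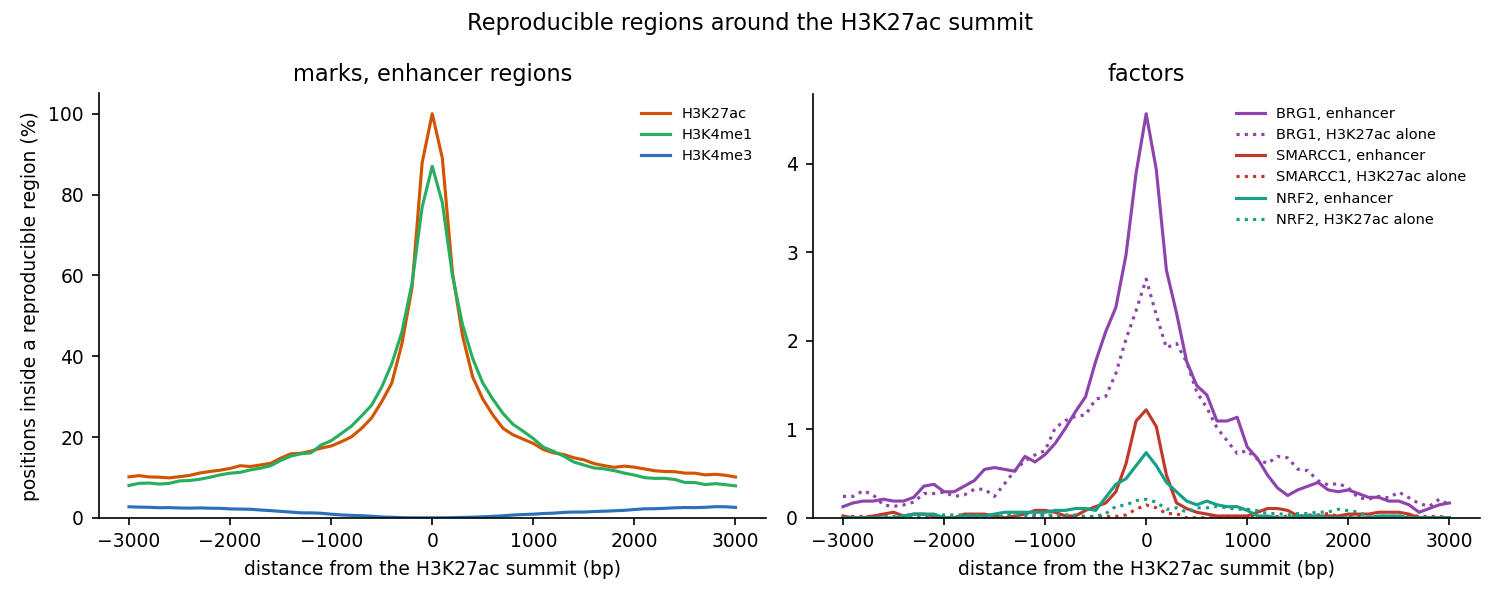
Share of regions (y axis, %) whose position at a given distance from the H3K27ac summit (x axis, bp) lay inside a reproducible region of each mark (left, enhancer regions) or factor (right, enhancer regions solid, H3K27ac-alone regions dotted). H3K4me1 covered 87.0% of enhancer regions at the summit, BRG1 4.57% against 2.70% of H3K27ac-alone regions, SMARCC1 1.22% against 0.145% and NRF2 0.736% against 0.210%.

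The edge of the rule separated some regions by a few bases. The shortest H3K4me1 overlaps inside the rule were 1 bp at a region near BMP6, a bone morphogenetic protein ligand, 3 bp in DNM3, a dynamin of membrane fission, and 15 bp in MARCHF4, a ubiquitin ligase. Each of these had an H3K4me1 peak of only 1 library over the acetylated stretch itself, and 58 enhancer regions (1.22%) had under 200 bp of H3K4me1. The enhancer regions nearest to H3K4me3 lay 25 bp from it in UBE2E1, 81 bp in CCDC88B and 85 bp in STARD3NL. Outside the rule, the H3K27ac-alone regions nearest to H3K4me1 lay 15 bp from it in TRAF3IP2, 19 bp in ISG20 and 30 bp in SYNM. Of all H3K27ac-alone regions, 1474 (23.8%) met an H3K4me1 peak of at least 1 library, 35 of them of both. Of the enhancer regions, 33 met an H3K4me3 peak of at least 1 library, 2 of them of both.

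The 10 enhancer regions with the highest H3K27ac lay inside coding genes in 8 cases. The highest, chr20:47316812-47320392 in ZMYND8, a reader of modified histones, had an H3K27ac fold of 11.1 and 11.0 in the 2 libraries and an H3K4me1 fold of 3.70 and 3.02, with SMARCC1 at 3.21 and 3.40. Next were a region in CUEDC1 at chr17:57935310-57936861 (10.3 and 11.1) and a region in CXXC5, a zinc finger protein of WNT signalling, at chr5:139667921-139670429 (10.6 and 10.4). TKT, transketolase of the pentose phosphate pathway, held one at chr3:53238419-53240020 with H3K27ac folds of 11.0 and 9.87 and H3K4me1 folds of 6.49 and 6.53. Both libraries thus placed these 4 regions far above the median of enhancer regions in H3K27ac, and TKT had the most H3K4me1 of the 4.

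ABCC1, an export pump for glutathione conjugates and drugs, held one at chr16:15987302-15988956 with H3K27ac folds of 10.5 and 8.69. ITGA3, the laminin-binding integrin α3 chain, held one at chr17:50062185-50065746 with 9.43 and 9.83. Both genes thus held single stretches with an H3K27ac fold far above the medians of 3.87 and 3.83. RAB31, a GTPase of vesicle traffic, held a region with folds of 9.15 and 9.16. Another 2 of the 10, 17518 bp from GPRIN2 (9.43 and 9.60) and 133271 bp from GDF10 (10.2 and 10.3), lie in a part of chromosome 10 known for duplicated sequence, where reads of near-identical copies may not be told apart. Of the 10, 4 held a SMARCC1 site (ZMYND8, CXXC5, GPRIN2 and ABCC1) and the one nearest GDF10 held a BRG1 site.

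BRG1 sites were found in more of the enhancer regions than of either other class. A reproducible BRG1 site lay in 308 enhancer regions, or 6.48% (exact interval 5.80 to 7.22), against 250 H3K27ac-alone regions (4.04%) and 108 H3K4me3-bearing regions (0.812%), where 2.75% of all H3K27ac regions held one. By single libraries, 8.31% and 15.3% of enhancer regions met a BRG1 peak, against 4.88% and 10.3% of H3K27ac-alone regions and 1.66% and 4.51% of H3K4me3-bearing regions. The 2 libraries differed widely in level, at 11.8% ± 4.95 in enhancer regions and 7.60% ± 3.85 in H3K27ac-alone regions (SD, n = 2 libraries), and enhancer regions were higher in both. At equal region width and H3K27ac strength, in 25 strata, the odds of a BRG1 site were 1.51 times higher in enhancer than in H3K27ac-alone regions (interval 1.26 to 1.80, exact Cochran-Mantel-Haenszel test, two-sided, p adjusted over 6 tests 6.4e-06). By the same test this ratio was 1.25 with peaks of either replicate and 1.25 without H3K4me1 replicate 2 (adjusted p 0.017). With mark peaks at a −log10 q of at least 1.3 it was 1.42 (adjusted p 0.026). Of its 18 alternatives, 17 kept the direction and stayed past the threshold, and the highest ratio was 1.65. Against H3K4me3-bearing regions the odds ratio was 9.63 (7.66 to 12.2, adjusted p 7e-101), and leaving out the first BRG1 library gave 4.51 and leaving out the second 6.32, while peaks of either replicate gave 4.34. These p-values are over regions of the same libraries, so they do not measure the spread between replicates.

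SMARCC1 had few sites, and many of them lay in enhancer regions. Of 169 reproducible SMARCC1 sites, 71 (42.0%) lay in an enhancer region, against 9 (5.33%) in an H3K27ac-alone region and 56 (33.1%) in an H3K4me3-bearing region. Read by region, 71 enhancer regions (1.49%) held a SMARCC1 site, against 9 H3K27ac-alone regions (0.145%) and 54 H3K4me3-bearing regions (0.406%), where 0.553% of all H3K27ac regions held one. The 2 SMARCC1 libraries gave nearly equal shares, 3.83% and 3.75% of enhancer regions, against 0.581% and 0.517% of H3K27ac-alone regions and 1.14% and 1.03% of H3K4me3-bearing regions. The odds ratio was 7.96 against H3K27ac-alone regions (3.92 to 18.3, adjusted p 2.1e-12) and 4.66 against H3K4me3-bearing regions (3.19 to 6.83, adjusted p 5.9e-16) by the same exact test. The ratio against H3K27ac-alone regions rests on 9 sites in that class and was 13.1 without H3K4me1 replicate 2 and 3.89 when mark peaks needed a −log10 q of at least 1.3. No SMARCC1 peak of either library had a −log10 q above 0, which bears on every SMARCC1 value here.

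NRF2 was found in the fewest enhancer regions. A site lay in 45 enhancer regions (0.947%), against 19 H3K27ac-alone regions (0.307%) and 20 H3K4me3-bearing regions (0.150%), where 0.347% of all H3K27ac regions held one. By single libraries the shares were 3.39% and 1.56% of enhancer regions, against 1.60% and 0.565% of H3K27ac-alone regions and 0.797% and 0.248% of H3K4me3-bearing regions. The odds ratio was 2.90 against H3K27ac-alone regions (1.64 to 5.31, adjusted p 8.5e-05) and 6.30 against H3K4me3-bearing regions (3.62 to 11.3, adjusted p 2.1e-12) by the same exact test. Against H3K27ac-alone regions it was 1.87 without H3K27ac replicate 2, 1.70 with peaks of either replicate (4.17 against H3K4me3-bearing regions), and 1.52 with an adjusted p of 0.36 when mark peaks needed a −log10 q of at least 1.3, a setting that left 9 enhancer regions with an NRF2 site.

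**Figure D3:**
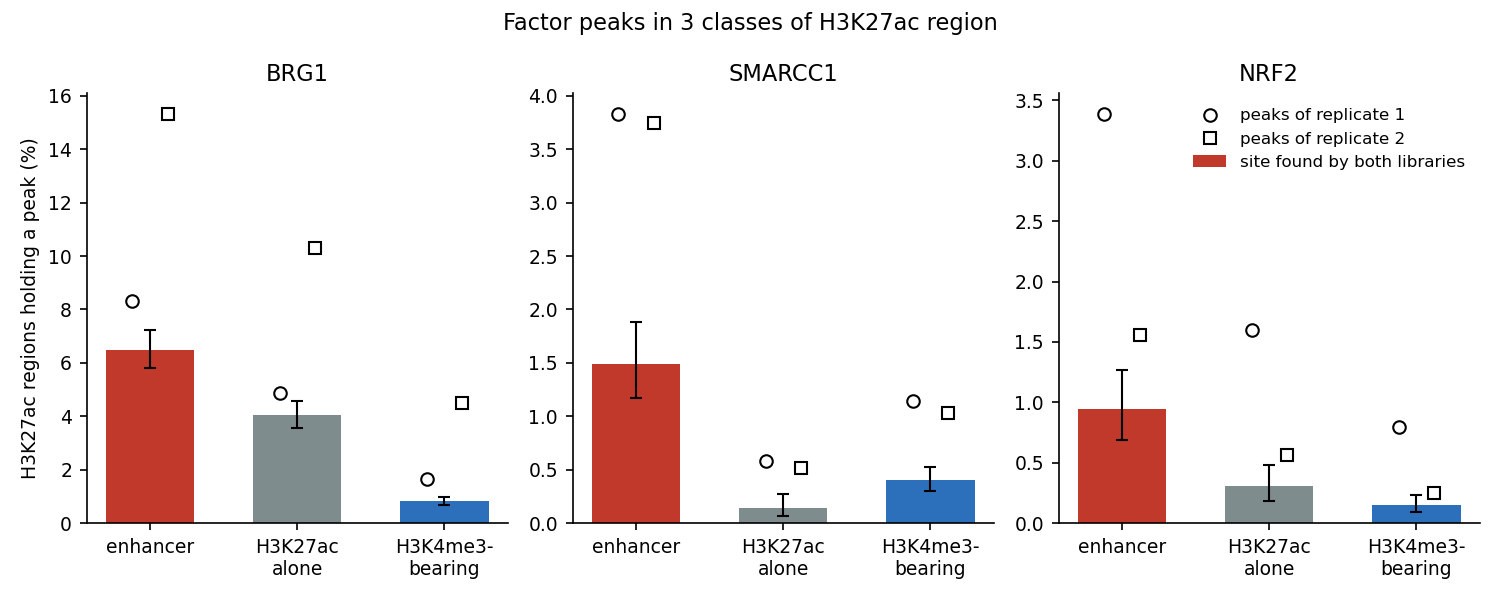
Share of H3K27ac regions (y axis, %, a separate scale for each factor) that held BRG1, SMARCC1 or NRF2. Bars are sites found by both libraries with exact 95% intervals over regions, circles and squares the peaks of replicates 1 and 2. Enhancer regions were the highest class for every factor in both libraries, with bars at 6.48% for BRG1, 1.49% for SMARCC1 and 0.947% for NRF2.

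Most sites of BRG1 and NRF2 lay elsewhere. Of 2039 BRG1 sites, 307 (15.1%) lay in an enhancer region, and of 383 NRF2 sites 44 (11.5%) did. In all, 379 enhancer regions (7.97%) held at least 1 factor, so 4374 held no reproducible site of any. BRG1 stood without the other factors in 268 enhancer regions, SMARCC1 in 55 and NRF2 in 16. NRF2 and BRG1 shared 24 further regions, BRG1 and SMARCC1 shared 11, all 3 factors shared 5, and none held SMARCC1 and NRF2 without BRG1.

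Most enhancer regions with a factor held a single one, 339 of 379, and 40 held more than 1. NRF2 and SMARCC1 were both more frequent where BRG1 stood. NRF2 stood in 29 of 308 enhancer regions with BRG1 (9.42%, exact interval 6.40 to 13.2), against 16 of 4445 without it (0.360%, 0.206 to 0.584). SMARCC1 stood in 16 of 308 with BRG1 (5.19%), against 55 of 4445 without it (1.24%). Most enhancer regions with SMARCC1 thus had no reproducible site of BRG1, the ATPase of the same complexes: 16 of 71 did (22.5%). No test was run on these overlaps.

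The regions with all 3 factors were near or in KLHL41, ATIC, MTURN, IQGAP1 and LPIN3. IQGAP1, a scaffold of actin and signalling proteins, held the one with the most H3K27ac, chr15:90400022-90401300, at 7.25 and 8.21, with BRG1 at 5.13 and 6.12, SMARCC1 at 2.99 and 3.75 and NRF2 at 3.39 and 3.60. The region 10602 bp from LPIN3, a phosphatidate phosphatase, had the most uneven H3K27ac, 4.52 and 7.29, with SMARCC1 at 4.34 and 4.21 and NRF2 at 5.25 and 3.79. The region 43566 bp from MTURN had H3K27ac at 4.42 and 4.71 and NRF2 at 5.93 and 4.56. The region 13938 bp from ATIC, an enzyme of purine synthesis, had 3.87 and 3.76, and that at the start of KLHL41, whose sequence is given above, had 3.27 and 3.76.

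The 6 strongest BRG1 sites in enhancer regions all lay farther from gene ends than the median enhancer region. The first lay in LRRC8D, a subunit of volume-regulated anion channels, at chr1:89866176-89866798 with BRG1 folds of 5.59 and 7.54 and H3K27ac folds of 5.02 and 4.41. The others lay 80067 bp from EMX2, a homeobox factor (BRG1 5.33 and 6.42), 26471 bp from BPGM, bisphosphoglycerate mutase (5.47 and 6.03), 48216 bp from GALR1, a galanin receptor (6.05 and 5.94), in PALS2 (5.14 and 6.42) and 227574 bp from KHDRBS3 (5.86 and 5.83). Their H3K27ac folds ran between 3.14 and 5.17 over both libraries, lowest in PALS2 at 3.30 and 3.14, and the region near BPGM also held NRF2 at 5.55 and 5.26.

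The strongest SMARCC1 site in an enhancer region lay in RSF1, a chromatin remodelling factor, at chr11:77705267-77705970 with SMARCC1 folds of 4.40 and 4.75 and BRG1 folds of 3.70 and 5.20. Next were the ABCC1 region described above (SMARCC1 4.17 and 4.39), the LPIN3 region, and regions in BCAS3 (3.73 and 5.11), in OSBPL9, an oxysterol-binding protein (4.07 and 3.83), and 183457 bp from SMOC2 (4.45 and 3.57). The strongest NRF2 sites lay 342386 bp from ACTRT1 (NRF2 6.44 and 5.15), at the BPGM region, 26050 bp from TM4SF4 (4.95 and 7.14), at the MTURN and ATIC regions and 275370 bp from RFPL4B (4.95 and 4.71). None of these 6 NRF2 regions was nearest to a gene on the list of NRF2 pathway genes described further on. That list took 25 of the 4175 enhancer regions with a coding gene within 50 kb, so none among 6 lies near that share. The regions nearest to ACTRT1 and RFPL4B lay beyond 50 kb and could not count.

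Enhancer regions with SMARCC1 had more of both marks than those without it, and by their medians regions with any of the factors lay farther from gene ends. With SMARCC1 the median H3K27ac fold was 4.45 and 4.52 in the 2 libraries, against 3.87 and 3.83 in enhancer regions without it, and the H3K4me1 fold was 4.80 and 4.74, against 4.02 and 3.82. Regions with BRG1 had 4.08 and 4.03, against 3.86 and 3.82 without it, a smaller step that was still seen in both libraries. Of the 951 enhancer regions with the most H3K27ac, 9.99% held BRG1 and 3.15% SMARCC1, against 6.10% and 0.631% of the 951 with the least. The median distance to the nearest end of a coding gene was 40892 bp with BRG1, against 22702 bp without it, and 53.2% of regions with BRG1 were centred in a coding gene, against 66.4%. With NRF2 the median distance was 34074 bp, against 23493.5 bp without it, and 46.7% were in a coding gene, against 65.7%. With SMARCC1 it was 31328 bp, against 23503 bp, and 67.6% were in a coding gene, against 65.5%. SMARCC1 summits lay a median of 88 and 65 bp from the H3K27ac summit of replicate 1, NRF2 summits 132.5 and 128 bp and BRG1 summits 138 and 146 bp. These differences within enhancer regions were not tested.

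Enhancer regions lay away from gene ends and more often inside genes than H3K27ac-alone regions did. Enhancer regions with a coding gene end no more than 1000 bp away numbered 248 (5.22%), against 500 H3K27ac-alone regions (8.07%) and 9756 H3K4me3-bearing regions (73.4%), where 43.3% of all H3K27ac regions were. The odds ratio against H3K27ac-alone regions was 0.614 (0.521 to 0.723, exact Cochran-Mantel-Haenszel test in the same strata, p adjusted over 2 tests 1.8e-09). A coding gene span held the centre of 3115 enhancer regions (65.5%), against 3566 H3K27ac-alone regions (57.6%) and 10804 H3K4me3-bearing regions (81.3%), where 72.1% of all H3K27ac regions were so placed. The odds ratio against H3K27ac-alone regions was 1.37 (1.26 to 1.48, adjusted p 3.4e-14). The rule left out H3K4me3, the mark of gene starts, so the distance from H3K4me3-bearing regions was not tested.

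**Figure D4:**
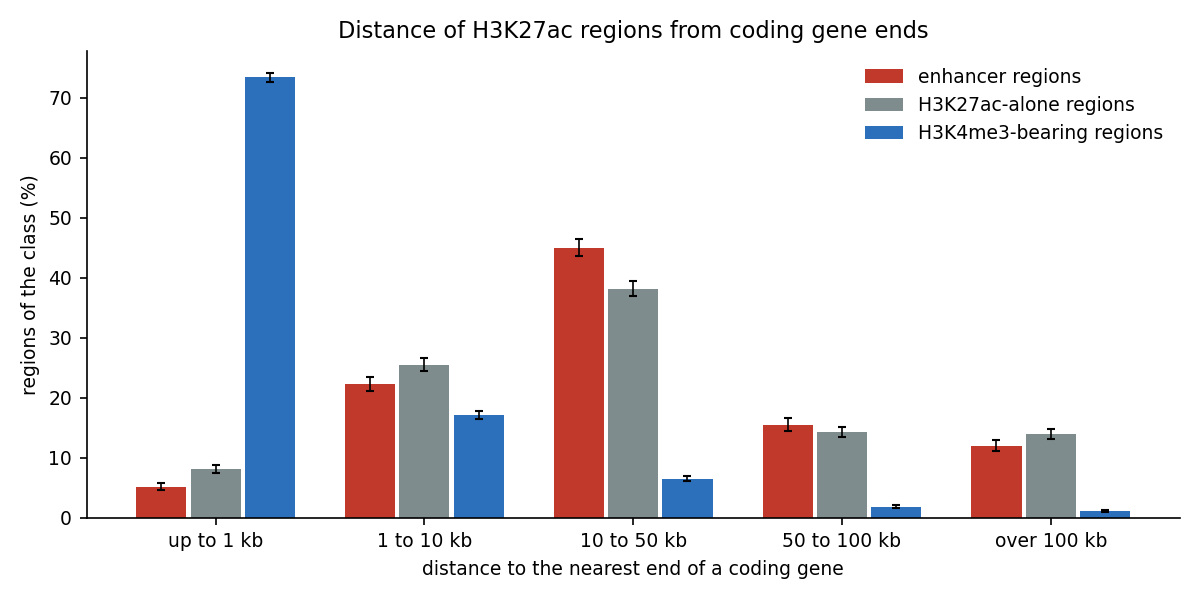
Share of regions (y axis, %) by distance to the nearest end of a coding gene (x axis, 5 ranges) for enhancer, H3K27ac-alone and H3K4me3-bearing regions, with exact 95% intervals over regions. Of enhancer regions 45.0% lay 10 to 50 kb from a gene end, against 38.2% of H3K27ac-alone regions, and 5.22% lay within 1 kb, against 8.07%.

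The median enhancer region was 23637 bp from the nearest coding gene end, against 21524 bp for H3K27ac-alone regions and 273 bp for H3K4me3-bearing regions. Over the 4579 enhancer regions on chromosomes with listed transcription starts, 178 (3.89%) lay within 1000 bp of a coding start, against 407 of 6006 H3K27ac-alone regions (6.78%). Transcription starts on chromosome 8 were not analysed here. Where a region was centred in a single coding gene of known strand, the gene was divided into 4 equal parts from its start. These held 29.1%, 29.1%, 23.3% and 18.5% of 2537 enhancer regions, which were thus spread over the gene with fewer in its last part. The first part held 35.5% of 2947 H3K27ac-alone regions and 86.0% of 8618 H3K4me3-bearing regions. By chromosome, enhancer regions made up between 8.06% (chromosome 19) and 25.8% (chromosome 5) of H3K27ac regions.

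Enhancer regions often lay near one another. The next enhancer region was a median of 7345 bp away, and 2558 (53.8%) had another within 10000 bp. Each was assigned to its nearest coding gene within 50 kb, which 4175 (87.8%) had, so that 9.57% of all coding genes, 1911 of 19974, had at least 1. Of these genes 1088 had a single enhancer region, 191 had 5 or more and 42 had 10 or more, which together took 578 regions (12.2%). Nearness does not show which gene a region acts on. Long genes have more room, with a median span of 63972 bp for genes with an enhancer region and 124701 bp for genes with 5 or more, against 24170.5 bp for all coding genes.

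The genes with the most enhancer regions had between 14 and 30. TNS3, a tensin of focal adhesions, had 30, of which 24 were inside the gene, and the highest of these reached H3K27ac folds of 9.93 and 7.90. KCNMA1, a calcium-activated potassium channel, and ZMIZ1, a transcriptional co-regulator, had 23 each. SHB, an SH2-domain adaptor, had 22, and HPCAL1, SEPTIN9, a cytoskeletal septin, and TRIO, an activator of small GTPases, had 20 each. MBP had 16, CMIP and ME3, a mitochondrial malic enzyme, had 15 each, and ACTN4, EGFR, ERGIC1, SH3BP4 and WWTR1 had 14 each. The genes differed in how many H3K27ac-alone regions stood among these. ZMIZ1 had 23 enhancer regions against 2 H3K27ac-alone regions and CMIP 15 against 2, while TRIO had 20 against 36 and WWTR1 14 against 28.

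**Figure D5:**
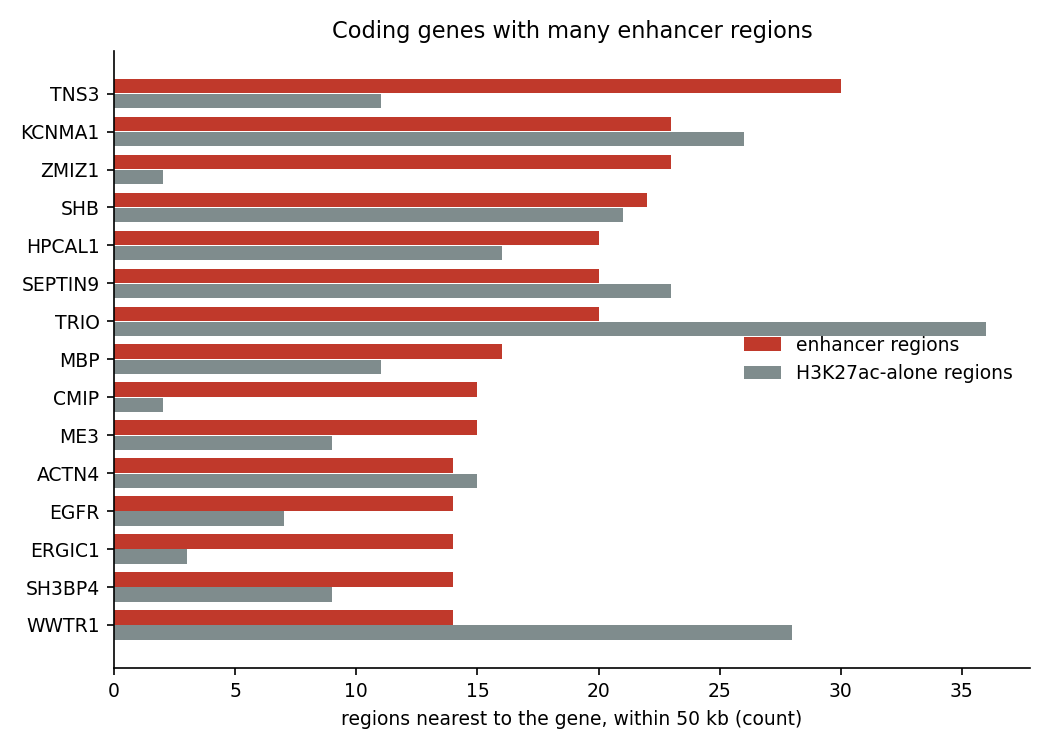
Number of enhancer regions and of H3K27ac-alone regions (x axis, count) nearest to each of 15 coding genes among those with the most enhancer regions (y axis). TNS3 had 30 enhancer regions against 11 H3K27ac-alone regions, ZMIZ1 23 against 2 and TRIO 20 against 36.

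Of the 289 enhancer regions at genes with 14 or more, 9 held a factor (3.11%, exact interval 1.43 to 5.83), against 7.97% of all enhancer regions. The 289 all lay within 50 kb of their gene, whereas the 7.97% also covers regions farther from any coding gene. Position was not held equal, the interval treats regions of the same gene as independent, and the difference was not tested. Among the 30 enhancer regions of TNS3, 1 held BRG1 and 1 SMARCC1, 1 of those of ZMIZ1 held SMARCC1 and 1 of those of MBP held BRG1. ACTN4 had 1 region with BRG1 and 1 with SMARCC1, ERGIC1 had 1 with SMARCC1, and ME3 and WWTR1 had 1 each with BRG1. KCNMA1, SHB, HPCAL1, SEPTIN9, TRIO, CMIP, EGFR and SH3BP4 held no reproducible site of any of the factors in an enhancer region. Across the genome 272 genes had an enhancer region with a factor.

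Genes of the YAP and TEAD pathway and of integrins and laminins had enhancer regions in many members. Of 20 YAP and TEAD genes, 10 had an enhancer region within 50 kb, 47 regions in all, beside 9.57% of all coding genes, and the median span of the list was 51246.5 bp. WWTR1, the co-activator TAZ, had 14, all inside the gene, with median H3K27ac folds of 5.03 and 4.72, and 1 held BRG1. AMOTL2, an angiomotin that restrains YAP, had 8, and its strongest, chr3:134328206-134328648, had H3K27ac folds of 7.27 and 7.01 and H3K4me1 folds of 7.05 and 6.96. NUAK2, a kinase induced by YAP, had 7, the DNA-binding partner TEAD1 had 5, and CCN1, a secreted target, had 3 outside the gene.

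Of 20 integrin and laminin genes, 12 had enhancer regions, 35 in all, beside 9.57% of all coding genes. The median span of this list was 79243.5 bp, against 24170.5 bp for all coding genes. ITGA2, the collagen-binding integrin α2 chain, had 8 inside the gene with median H3K27ac folds of 4.77 and 4.46. ITGA3 had 5 with medians of 5.18 and 6.53, and ITGB6, the epithelial integrin β6 chain, had 5 outside the gene with medians of 5.64 and 4.61. ITGA5 and ITGB5 had 3 each. Of these 5 genes all but ITGB5, at 3.09 and 4.21, had medians above those of all enhancer regions in both libraries. Among the list's other genes, LAMA4 and LAMA5 were above in both libraries and LAMA3 and LAMB1 in 1 only. LAMB3, LAMC1 and ITGB3 were below in both. Across the 35 regions of the list, 1 held BRG1 and none SMARCC1 or NRF2. Over all enhancer regions the shares were 6.48%, 1.49% and 0.947%, so these small counts lie near them. Of 18 collagens, with a median span of 115142 bp, 7 had an enhancer region, 10 regions in all, led by COL13A1 with 3.

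Genes of the TGF-β pathway, which PANC1 cells can answer to, had 16 enhancer regions at 6 of 21 members. That was 28.6% of the list, beside 9.57% of all coding genes. The median span of this list was 87787 bp. ACVR1, a BMP type I receptor, had 4, with medians of 4.89 and 4.48, and 1 held BRG1. The ligand TGFB2 had 3, and LTBP2 and LTBP3, which bind latent TGF-β, had 2 each. SMAD3, the pathway's transcription factor, had 3 enhancer regions beside 70 H3K27ac-alone regions, so most of the acetylated regions there lacked a reproducible H3K4me1 region. Of 12 EGF receptor genes and ligands, 2 had enhancer regions (16.7%, beside the same 9.57%). EGFR had 14, all inside the gene, with median H3K27ac folds of 4.31 and 4.20 and H3K4me1 folds of 4.21 and 4.05, and HBEGF had 1. Of 17 feedback genes of MAPK signalling, 5 (29.4%) had enhancer regions, 15 in all, led by SPRED2 with 6 and DUSP1 with 5.

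Among AP-1 factors, whose element is described above, 2 of 16 genes (12.5%) had an enhancer region, near the 9.57% of all coding genes. The one 15510 bp from JUN, chr1:58763870-58765280, had H3K27ac folds of 7.22 and 4.63, H3K4me1 folds of 5.81 and 6.24 and a BRG1 site at 4.09 and 3.83. The one near FOSL2 had lower H3K27ac, 3.84 and 2.46. An H3K4me3-bearing region was found at 9 of the 16, beside 43.1% of all coding genes.

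Of 23 genes of the NRF2 pathway and its targets, 4 (17.4%) had enhancer regions, 25 in all, beside 9.57% of all coding genes. ABCC1 had 12, all inside the gene, and SMARCC1 stood in 2 of them, neighbours at chr16:15987302-15988956 and chr16:15989143-15990702. In these 2 the SMARCC1 folds were 4.17 and 4.39 in the first and 2.83 and 3.68 in the second, and BRG1 gave a peak in replicate 2 only, at 4.03 and 3.83. NFE2L2, which encodes NRF2, had 7 inside the gene with median H3K27ac folds of 4.04 and 3.74, and TKT had 5. No enhancer region of these 25 held a reproducible site of NRF2 or BRG1, which over all enhancer regions stood in 0.947% and 6.48%, so a count of 0 among 25 lies near these shares.

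Of 20 genes for BAF and PBAF subunits, 3 (15%) had enhancer regions, beside 9.57% of all coding genes. These were BCL7A with 2 and ARID1A and ARID1B with 1 each. An H3K4me3-bearing region was found at 17 of the 20, again beside 43.1% of all coding genes. Cytosolic ribosomal protein genes, expressed in every cell, had 1 enhancer region at 1 of 24 members (4.17%), 22625 bp from RPS14. Of these 24 genes, 20 had an H3K4me3-bearing region.

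Epithelial, mesenchymal and lineage genes had enhancer regions at 27.3%, 25% and 22.2% of members, beside 9.57% of all coding genes. Of 22 epithelial genes, 6 had them, among them KRT8 with 3, KRT7 with 2, and CDH3, whose region held BRG1. Of 20 mesenchymal genes, 5 had them. SPARC, a matrix glycoprotein, and TGFBI, a matrix protein induced by TGF-β, had 4 each, and SNAI1, a repressor of E-cadherin, had 3, the strongest at chr20:49988917-49990998 with H3K27ac folds of 6.76 and 6.18. TWIST2, a related mesenchymal factor, had 1 with folds of 6.96 and 7.89 and a weak BRG1 site at 2.73 and 2.57. Of 18 pancreatic lineage factors, 4 had 1 each, FOXA2, KLF5, NR5A2 and PDX1, and the one near KLF5 held BRG1.

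The markers of the labelled cell type were represented in part. Of 8 ductal carcinoma markers, 4 had an enhancer region (KRT8, KRT7, EPCAM and KRT19), while KRT18, CDH1, CD24 and MUC1 had none. The one of EPCAM lay 14838 bp from the gene, with H3K27ac folds of 2.80 and 3.42. An H3K4me3-bearing region was found at 4 of the 8, beside 43.1% of all coding genes. These included KRT8 and KRT19 but not KRT7 or EPCAM. Of 5 leukocyte, 4 acinar, 4 endocrine, 4 neuronal and 4 hepatocyte markers none had an enhancer region within 50 kb, and of 4 endothelial markers VWF had 1, at 4.43 and 2.62. Counts on these lists are descriptions beside the 9.57% of all coding genes, so 0 among 4 or 5 markers lies near that share. The lists also differ in gene length. Among lists with no enhancer region, median spans ran from 5424.5 bp for endocrine to 59155 bp for neuronal markers.

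Of 1558 microRNA hairpins, 7 lay wholly or partly in an enhancer region: MIR6732, MIR584, MIR4462, MIR4669, MIR3165, MIR2116 and MIR3978. That of MIR4669, in RXRA, the partner of many nuclear receptors, had H3K27ac folds of 4.88 and 4.46, and that of MIR3165, in NUMA1, had 4.96 and 4.13. None of the 7 regions held a factor site, which 7.97% of all enhancer regions did, so 0 of 7 lies near that share.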

How the data were processed

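Peaks of 12 CUT&RUN libraries from PANC1 cells were used. Per the submitters' processing notes, MACS2 2.2.7.1, Picard 2.23.9, SAMtools 1.9 and Bowtie2 2.4.1 were named with the GRCh38 build, without roles or settings. Peaks had been called library by library. The deposited fold enrichment, a ratio, was used as strength without rescaling. The authors' −log10 p and −log10 q served only as thresholds, and the deposited score was not used. Read depth is unknown. Exact (Clopper-Pearson) 95% intervals cover counting error only.

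From these lists, overlapping or touching peaks were merged and classed as stated in the report. A factor was held where a reproducible site met the region by at least 1 bp. Classes were compared by exact conditional Cochran-Mantel-Haenszel tests in 5 by 5 strata of width and mean H3K27ac fold, with Benjamini-Hochberg adjustment within 6 factor and 2 location tests and a threshold of 0.05. The test was tried on simulated data. Genes, transcription starts and sequences came from RefSeq tables of GRCh38.p14, and genes are those nearest within 50 kb.

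Named regions were the 10 with the best mean rank of H3K27ac fold, the 6 strongest per factor, those with all 3 factors and 3 at each edge of the rule. Named genes were the 10 with most enhancer regions, with ties and the next 5, and up to 5 per list. Genes with a start window shown, microRNAs and a few further regions were chosen after their values were seen. A few genes picked by this rule are left out of the report. The members, the 20 lists and the tests were chosen with earlier results of these data known. Same-numbered replicates shared more peaks than others in 8 of 15 pairs of targets, so the numbers were not taken as pairs. Alternatives were stricter peaks, either replicate, other overlaps, strata and windows, and each library left out. Analyses used Python 3.11.15, NumPy 2.4.6, pandas 2.3.3, SciPy 1.17.1, matplotlib 3.10.9 and R 4.3.3.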

Additional observations from a re-analysis of the deposited data

How the results depend on the processing

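Of 138 odds ratios under alternatives, 129 kept their direction and stayed past the threshold. With mark peaks at a −log10 q of at least 1.3, 869 enhancer regions were left, their median H3K27ac fold was 4.76, and NRF2 against H3K27ac-alone regions had an odds ratio of 1.52 (adjusted p 0.36; over its 18 alternatives the odds ratio ran between 0 and 3.74). At a −log10 q of at least 5, 9 enhancer regions were left with a median fold of 7.17. None of the 9 held BRG1 or NRF2, so those 4 odds ratios were 0, SMARCC1 was at 17.4 against H3K27ac-alone regions (adjusted p 0.13) and 14.4 against H3K4me3-bearing regions (adjusted p 0.1), gene ends were at 0 and gene bodies at 2.47 (adjusted p 0.58 for both); so few regions allow no reading. Peaks of either replicate gave 9931 enhancer regions with a median fold of 3.51. The replicate block, in which same-numbered libraries were classed together and stratified by number, gave 7261.5 enhancer regions per number on average (7679 and 6844) and changed no call, although a locus can count once per number. Leaving out a mark library gave between 4736 and 6331 enhancer regions and median H3K27ac folds between 3.61 and 3.84. The settings for the median fold were added after the data were seen. Of 28 named regions, 15 stayed enhancer regions at a −log10 q of at least 1.3 and 2 at 5. Of 40 list counts at other distances, 37 stayed within 1.5 times. Depth, the control behind the folds and the 2 libraries per target limit every value: most factor peaks have a −log10 q of 0, and p-values over regions treat neighbouring regions as independent.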
